A study of Rattus norvegicus with 13 samples.

Results

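The proteins of the mitochondrial ribosome are encoded by nuclear genes, named Mrpl for the large subunit and Mrps for the small subunit. In cultured rat lenses, 72 of the 18166 genes read by a probe set with 1 gene name were of this kind. They were taken as all genes whose symbol begins with Mrpl or Mrps and a number, 45 Mrpl and 27 Mrps genes, each read by 1 probe set. A log2 signal of 5, the minimum used in the study, was reached in at least 1 array by 64 of them (88.9%, against 37.3% of all genes), which comprised 41 Mrpl and 23 Mrps genes. These 64 were tested among 6778 genes. The other 8 (Mrpl2, Mrpl41l1, Mrpl42, Mrpl50, Mrps6, Mrps11, Mrps17 and Mrps28) did not exceed 4.51 in any array and were not tested. Genes of this family that were not analysed here included Mrpl9, Mrpl11, Mrpl24, Mrpl33, Mrpl39, Mrps2 and Mrps22.

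The mitochondrial ribosome translates the few proteins encoded by mitochondrial DNA, all of them subunits of the respiratory chain and the ATP synthase. Its protein subunits are made in the cytosol and imported, and join ribosomal RNA transcribed from the mitochondrial genome. Some have counterparts in bacterial ribosomes and others are particular to mitochondria. In the lens, mitochondria are kept in the epithelium and the young outer fibre cells and are degraded as fibre cells mature.

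Lenses of male Sprague Dawley rats, 6 weeks old, were cultured in a medium with bovine serum albumin. The RNA of 13 samples was hybridised to Rat Gene 2.0 ST arrays. Inhibitors of histone acetyltransferases, enzymes that acetylate histones, were added after lenses in 30 mM galactose had turned opaque, and these lenses were collected on Day 6. There was 1 array for each of 6 treatments: 40 µM C646, 10 µM CBP30 (both inhibitors of CBP and p300), 80 µM CPTH2 (Gcn5), 40 µM C646 with 80 µM CPTH2, 10 µM CBP30 with 80 µM CPTH2, and 50 µM TH1834 (Tip60). They were set against 3 galactose Day 6 arrays. The inhibitors were dissolved in DMSO, and in the study the partner lens from the same animal received only this solvent. The study does not say whether the Day 6 arrays came from such lenses. The galactose groups of 3 Day 6 and 3 Day 4 arrays were set against 1 control array, cultured without galactose for 4 days, so that Day 6 differed from the control in time as well. It is not stated whether samples of 1 day came from different animals, so p-values measure the spread between these samples, which may be technical. In comparisons with single arrays the spread came from the 6 galactose arrays alone, and the single arrays were assumed to vary like them.

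The arrays read whole lenses, in which fewer cells of a type and less RNA per cell cannot be told apart. Of the lens markers, 9 of 10 epithelial genes and all 8 measured fibre cell genes reached the minimum. None of the 8 photoreceptor, 7 pigment epithelium and 4 endothelium genes measured did so. Of 7 immune cell genes 1 did, Cd68, which lay between 5.59 and 7.51 in the 6 inhibitor arrays, against 4.32 to 5.21 on Day 6, 3.71 to 5.05 on Day 4 and 3.49 in the control. The mean of the 9 epithelial genes was 4.96 to 6.96 in the inhibitor arrays, 5.70 to 6.84 on Day 6, 5.53 to 6.61 on Day 4 and 7.43 in the control. The array medians over the 6778 genes lay between 5.62 and 5.88.

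Short motifs of factors that regulate mitochondrial genes were counted in the promoters of the members, as a description of what they share besides the name. RefSeq gave a window of 250 bases before and 50 bases after the start site on the GRCr8 assembly for 58 of the 72 members, and the first window was taken where a gene had several. The motif CCGGAAG, bound by ETS factors such as GABP, a regulator of respiratory genes, was found on either strand in 19 of 58 (32.8%), against 9.2% of 27457 promoters and 11.2% of the 18999 of protein-coding genes. The YY1 motif AANATGGCG was found in 13 (22.4%, against 3.3% and 4.0%), and in 12 of them it reached past the start site (1.92% and 2.41%). Its letters contain ATG, so coding starts can hold it. The NRF1 motif, GCGCA followed directly by TGCGC, was found in 4 (6.9%, against 0.9% and 1.1%), and with any letter in place of the T in 8 (13.8%, against 4.7% and 6.0%). At least 1 of the 3 kinds occurred in 30 of 58 (51.7%, against 15.2% and 18.6%). TATAAA was found in 13.8% of members and 14.3% of all promoters, and CCAAT in 48.3% and 37.7%. The matches describe letters and are not known sites.

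ETS and YY1 motifs together were held by 6 members (10.3%, against 0.7% of all promoters). Windows of 4 members are shown with matches of the ETS, YY1 and NRF1 motifs in capitals: Mrpl49 and Mrpl46, whose signals passed the test below, Mrps18a, which has both ETS and YY1 motifs, and Mrps18b, which has an NRF1 and an ETS motif. They lie at chr1:212779278-212779577 (minus strand), chr1:142116981-142117280 (minus), chr9:22367331-22367630 (minus) and chr20:2842756-2843055 (plus). The window of Mrpl49 held none of the 3 motifs.
Mrpl49: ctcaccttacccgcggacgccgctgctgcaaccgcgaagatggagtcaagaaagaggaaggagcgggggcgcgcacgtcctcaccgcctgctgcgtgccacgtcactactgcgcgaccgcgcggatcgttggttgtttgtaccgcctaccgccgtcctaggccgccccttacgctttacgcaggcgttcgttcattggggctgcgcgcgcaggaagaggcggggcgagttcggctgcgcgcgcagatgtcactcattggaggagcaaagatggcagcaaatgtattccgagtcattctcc
Mrpl46: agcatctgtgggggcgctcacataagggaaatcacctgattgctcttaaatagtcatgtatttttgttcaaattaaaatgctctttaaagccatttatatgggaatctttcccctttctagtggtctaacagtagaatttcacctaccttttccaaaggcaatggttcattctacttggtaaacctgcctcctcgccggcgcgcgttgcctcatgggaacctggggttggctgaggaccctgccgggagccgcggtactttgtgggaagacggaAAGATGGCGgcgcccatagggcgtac
Mrps18a: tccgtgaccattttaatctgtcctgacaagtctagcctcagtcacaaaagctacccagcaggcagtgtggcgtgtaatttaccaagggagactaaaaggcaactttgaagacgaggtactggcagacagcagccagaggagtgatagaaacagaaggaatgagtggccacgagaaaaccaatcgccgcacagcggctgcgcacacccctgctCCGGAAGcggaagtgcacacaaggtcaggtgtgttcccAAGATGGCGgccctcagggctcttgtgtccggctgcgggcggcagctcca
Mrps18b: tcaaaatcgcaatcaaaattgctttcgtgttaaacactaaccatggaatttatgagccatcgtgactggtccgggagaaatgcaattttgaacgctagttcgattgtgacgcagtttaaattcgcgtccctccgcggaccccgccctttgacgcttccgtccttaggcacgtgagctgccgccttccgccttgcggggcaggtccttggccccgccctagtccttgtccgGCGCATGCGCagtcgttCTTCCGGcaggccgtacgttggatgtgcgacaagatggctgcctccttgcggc
Counted from the first base of the transcript as 1, the YY1 motif of Mrpl46 began at position 25. In Mrps18a the ETS motif began at position -38 and the YY1 motif at position 1, and in Mrps18b the NRF1 motif began at position -20 and the ETS motif at position -3. Of the 58 members, 18 had another gene starting within 1000 bases upstream on the other strand. The share over all genes was not counted, and Mrpl46 and Mrps11 count as partners of each other. Mrpl46 and Mrps11, both members, started 234 bases apart, and Mrpl49 started 186 bases from Fau, which encodes a ubiquitin-like protein fused to a protein of the cytosolic ribosome. Mrpl47 started 244 bases from Ndufb5, a subunit of respiratory complex I, and Mrpl32 started 210 bases from Psma2, a subunit of the proteasome.

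The members differed more in level from one another than across the arrays. Over the 64 tested genes the mean of the 13 arrays had a median of 5.89 (5.75 over all 6778 genes), and 42 reached 5 in all 13 arrays. The highest in the large subunit were Mrpl54 (8.47 to 9.22, median 9.02), Mrpl53 (7.79 to 8.93, median 8.66) and Mrpl17 (7.63 to 8.27, median 8.15). The highest in the small series were Mrps18a (7.12 to 7.59, median 7.28), Mrps7 (6.89 to 7.45, median 7.11) and Mrps24 (6.39 to 7.44, median 7.02), and these ranges overlap. Mrps18a is, by its place in the mammalian ribosome, a protein of the large subunit despite its name. Among the members below the minimum, Mrpl42 was lowest at 1.70 to 3.04 (median 2.38), followed by Mrpl41l1 (2.79 to 3.66, median 3.36) and Mrpl50 (3.54 to 4.49, median 4.11). Of the Mrps genes, Mrps28 lay at 3.46 to 4.31 (median 3.83), Mrps11 at 2.63 to 4.42 (median 4.01) and Mrps6 at 3.89 to 4.50 (median 4.15). Such signals need not be above background. Different probe sets respond differently to the same amount of RNA and the signals are not per length, so the order is one of signals and not of transcript numbers.

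**Figure D1:**
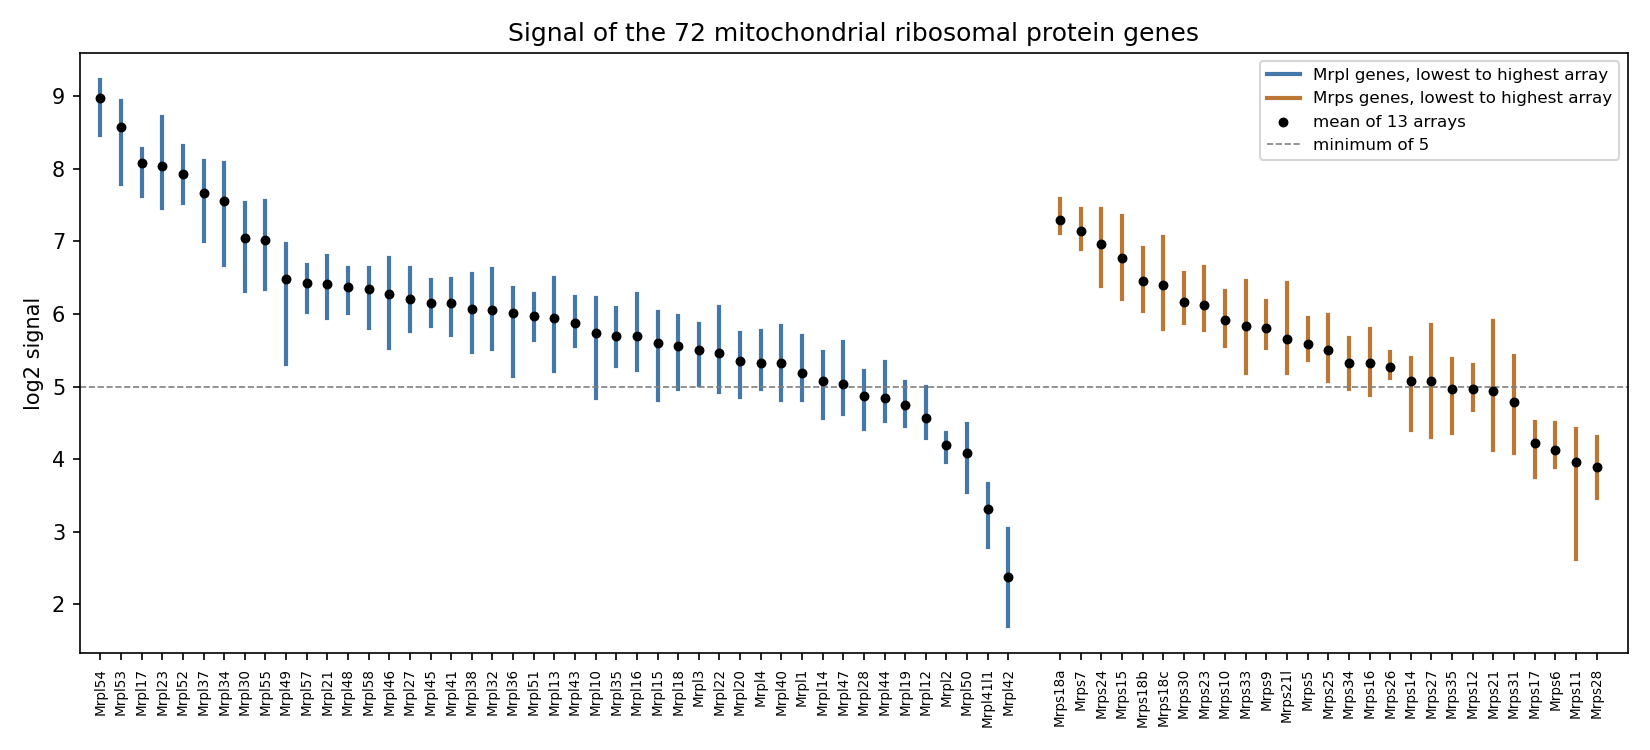
Log2 signal of each of the 72 genes, with Mrpl genes on the left and Mrps genes on the right, ordered by mean. Lines run from the lowest to the highest of the 13 arrays, dots are means, and the dashed line is the minimum of 5. Means ran between 8.98 for Mrpl54 and 2.37 for Mrpl42.

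Across the arrays, the SD of a tested member was 0.11 to 0.46 with a median of 0.27, against a median of 0.29 over all genes. The 5 most variable were Mrps21, Mrpl34, Mrps33, Mrps21l and Mrpl49. Mrps21 ranged over 4.13 to 5.90 (median 4.95), Mrpl34 over 6.68 to 8.08 (median 7.69), Mrps33 over 5.18 to 6.46 (median 5.83), Mrps21l over 5.18 to 6.43 (median 5.50) and Mrpl49 over 5.31 to 6.97 (median 6.52). Mrps21 and Mrps21l are near copies by name, and RefSeq lists 40 pseudogenes of genes of this form, so signals of such genes may be shared. The least variable was Mrps26 (5.12 to 5.47), a small-subunit protein particular to mitochondria.

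Against the control, the Mrp genes as a group showed little shift on either day of galactose. On Day 4, 37 of 64 members had a positive and 27 a negative difference, and their median log2 difference was 0.11, against 0.05 over all genes. On Day 6 the signs were split 32 to 32 and the median was -0.01, as it was over all genes. The test called 2 members on Day 4, both higher (3.12%, against 3.78% of all genes), and 1 on Day 6 (1.56%, against 5.49%). Shares of members near or under those of all genes are no result about the group.

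Mrpl49, a large-subunit protein particular to mitochondria, had log2 signals of 6.31, 6.97 and 6.53 on Day 6, 6.87, 6.60 and 6.45 on Day 4 and 5.31 in the control. In all 12 arrays with galactose it lay at 6.31 or above, also with the inhibitors (6.32 to 6.67). The difference was 1.29 on Day 6 (SE 0.29, limma adjusted p = 0.0392) and 1.33 on Day 4 (SE 0.29, limma adjusted p = 0.0426). Fau, which starts next to it on the other strand, had 9.10, 8.64 and 8.97 on Day 6, 8.62, 8.93 and 8.97 on Day 4 and 9.01 in the control, which lay inside the range of Day 6 and above that of Day 4.

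Mrpl46, also a large-subunit protein particular to mitochondria, had 6.08, 6.32 and 6.33 on Day 6, 6.54, 6.77 and 6.41 on Day 4 and 5.53 in the control. Its difference from the control passed the test on Day 4 (1.04, SE 0.23, limma adjusted p = 0.0426) and missed it on Day 6 (0.71, SE 0.23, limma adjusted p = 0.105). With inhibitors it had 6.56 with C646, 5.97 with CBP30, 6.58 with CPTH2, 5.84 with C646 and CPTH2, 5.89 with CBP30 and CPTH2, and 6.76 with TH1834. The 3 lowest of these lay under every Day 6 array. Mrps11, its partner across the start site, stayed under the minimum in every array.

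All 3 calls rest on the single control array. They were lost without the filter on low signals (limma adjusted p = 0.0917 to 0.0986) and with a minimum of 4 (0.0517 to 0.0571). Of the 6 fits that each left out 1 galactose array, 5 lost the call of Mrpl46 on Day 4. For Mrpl49, 4 of these fits lost the call on Day 4 and 4 lost it on Day 6. Leaving out 1 galactose array at a time gave adjusted p = 0.0393 to 0.106 for Mrpl46 on Day 4, 0.0373 to 0.102 for Mrpl49 on Day 4 and 0.0328 to 0.0837 for Mrpl49 on Day 6. The differences themselves stayed between 0.94 and 1.12, 1.22 and 1.43, and 1.11 and 1.44.

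**Figure D2:**
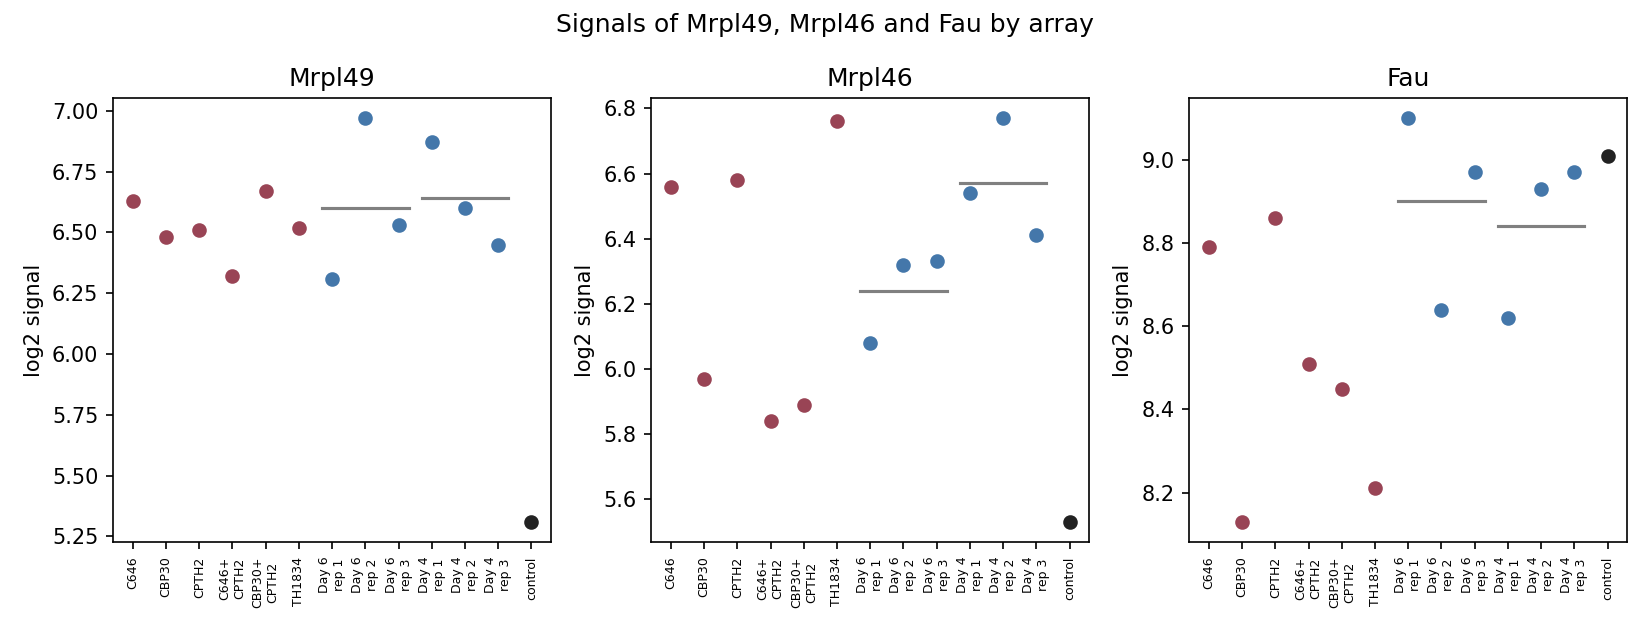
Log2 signal of Mrpl49, Mrpl46 and the neighbouring gene Fau in each array (axes do not start at 0). Red points are inhibitor treatments, blue points galactose Day 6 and Day 4 replicates with their mean as a grey line, and the black point the control. Mrpl49 was 5.31 in the control and at least 6.31 in the 12 other arrays.

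Of the other members with large differences between Day 6 and the control, Mrpl10, which forms the base of the stalk to which translation factors bind, had 5.60, 6.22 and 5.77 on Day 6 against 4.84 in the control (1.03, SE 0.26, limma adjusted p = 0.0573). Mrpl3, near the peptidyl transferase centre, had 5.61, 5.70 and 5.65 against 5.02 (0.64, SE 0.19, limma adjusted p = 0.0906). Both lay above the control in every Day 6 array. On the negative side, Mrps21 had 5.29, 4.95 and 5.02 on Day 6 against 5.90 in the control (-0.81, SE 0.29, limma adjusted p = 0.14), and Mrps21l had 6.20, 5.49 and 5.18 against 6.43 (-0.81, SE 0.39, limma adjusted p = 0.25). Mrpl38 had 5.47, 5.98 and 5.82 against 6.43 (-0.67, SE 0.27, limma adjusted p = 0.175), and Mrps15 had 7.08, 6.54 and 6.41 against 7.35 (-0.67, SE 0.29, limma adjusted p = 0.206). All 4 lay below the control in every Day 6 array. Every Day 6 array lay above the control for 23 members (35.9%, against 33% of all genes) and below it for 17 (26.6%, against 33.3%). On Day 4 the counts were 22 above (34.4%, against 38%) and 15 below (23.4%, against 29.4%).

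By place in the ribosome, the 18 large-subunit proteins particular to mitochondria had a median difference of 0.03 on Day 6 and 0.20 on Day 4, and held both called genes. The 25 large-subunit proteins with bacterial counterparts had medians of -0.03 and 0.11. The 11 small-subunit proteins with counterparts had 0.09 and 0.10, and the 9 without had 0.22 and 0.30. Mrps21l was put in none of these classes, and Mrps18a and Mrps30 were counted in the large subunit. Among genes that act on the ribosome, Mtg2, a GTPase of large-subunit assembly, was called lower on Day 6 (4.99 against 5.96 in the control, -0.98, SE 0.20, limma adjusted p = 0.0319). It was the 1 call among 13 assembly and rRNA modification genes in that comparison, where 5.49% of all genes were called. This call also rests on the single control array, and the alternatives were not followed for it. The median of the 13 genes was 0.03, and Mterf4 went the other way (5.15 against 4.10, 1.05). Of 4 mitochondrial ribosomal proteins under other names, 7 translation factors, 16 import and mass markers, 5 genes of mitochondrial transcription and 4 transcription regulators, 0 were called on either day.

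Between the days of galactose, no member was called. The count was 0 of 64 and 0 of 6778 (0%) by limma, and at an unadjusted p under 0.05 it was 0 members with a positive difference (0%, against 1.4% of all genes) and 2 with a negative one (3.12%, against 3.95%). The median difference of Day 6 from Day 4 was -0.05 for the members and -0.06 for all genes. Without Day 4 replicate 1 the members' median was 0.02, and leaving out each of the other galactose arrays gave -0.11 to -0.01, so its sign rests on 1 array. Every Day 6 array lay above every Day 4 array for Mrpl54 and Mrps16 (3.12%, against 2.61% of all genes) and below for Mrpl22, Mrpl40, Mrpl46 and Mrpl51 (6.25%, against 8.19%). Mrpl22, at the exit of the peptide tunnel, had 5.28, 4.92 and 4.98 on Day 6 against 6.09, 5.78 and 5.32 on Day 4 (-0.67, limma adjusted p = 0.883). Mrpl40, a protein particular to mitochondria, had 4.88, 5.16 and 5.07 against 5.41, 5.83 and 5.59 (-0.57, limma adjusted p = 0.883). Mrps27 (-0.44, and -0.16 without replicate 1 of either day) and Mrpl55 (-0.41) followed, with overlapping days. The largest positive differences were those of Mrps16 (0.32), Mrpl10 (0.24), Mrps34 (0.17) and Mrpl47 (0.16), of which only Mrps16 did not overlap, with 5.79, 5.67 and 5.57 on Day 6 against 5.37, 5.35 and 5.37 on Day 4. Their order depends on single arrays: leaving out 1 galactose array at a time gave 0.26 to 0.37 for Mrps16, 0.06 to 0.37 for Mrpl10, 0.11 to 0.28 for Mrps34 and 0.004 to 0.31 for Mrpl47.

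With the inhibitors, most members had lower signals in the CBP30 arrays than the Day 6 mean (54 of 64 with CBP30 and 43 with CBP30 and CPTH2, 40 of them in both), and 7 were higher in both. The share of all genes with each sign was not counted, and their median difference was 0.07 with CBP30 and 0.15 with CBP30 and CPTH2. No member was called against galactose Day 6 in any of the 6 treatments by limma. Over all genes the test called 0% with C646, 0% with CBP30, 0.0295% with CPTH2, 0.856% with C646 and CPTH2, 0% with CBP30 and CPTH2 and 0.059% with TH1834. At an unadjusted p under 0.05, 13 members had a negative difference with CBP30 (20.3%, against 6.09% of all genes) and 0 a positive one (0%, against 9.72%). With CBP30 and CPTH2 it was 9 negative (14.1%, against 5.47%) and 0 positive (0%, against 15.3%). With C646 it was 0 negative (0%, against 1.09%) and 3 positive (4.69%, against 2.97%), and with CPTH2 1 negative (1.56%, against 1.73%) and 7 positive (10.9%, against 11%). With C646 and CPTH2 it was 3 negative (4.69%, against 7.55%) and 0 positive (0%, against 8.94%), and with TH1834 2 negative (3.12%, against 3.72%) and 7 positive (10.9%, against 10.2%).

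The mean signal of the 64 members was 5.74 with CBP30 and 5.83 with CBP30 and CPTH2, against 6.13, 6.00 and 6.00 on Day 6. It was 6.14 with C646, 6.24 with CPTH2, 5.96 with C646 and CPTH2 and 6.11 with TH1834, and lay at 6.23, 6.12 and 6.00 on Day 4 and 6.03 in the control. The 2 CBP30 arrays thus gave the lowest means of the 13. The lowest signal of a member over all arrays lay in the CBP30 array for 18 members and in the CBP30 and CPTH2 array for 15 (28.1% and 23.4%, against 10.0% and 7.1% of all genes).

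With CBP30, 54 of 64 members had a negative difference from Day 6 and the median was -0.31, against 0.07 over all genes. With CBP30 and CPTH2, 43 were negative and the median was -0.19, against 0.15. Relative to all genes the shifts were -0.38 and -0.34. CBP30 lay below all 3 Day 6 arrays for 40 members (62.5%, against 25.7% of all genes) and above for 4 (6.25%, against 37.6%). CBP30 and CPTH2 lay below for 31 (48.4%, against 20.4%) and above for 7 (10.9%, against 45.9%). Both arrays together lay below all 3 Day 6 arrays for 27 members (42.2%, against 12.2%) and above for 1, Mrpl38 (1.56%, against 25.6%). The 27 include Mrpl12, Mrpl14, Mrpl19, Mrps12, Mrps16 and Mrps35, which lay under 5 in both CBP30 arrays, where signals need not be above background. Mrps12 passed the minimum only through galactose arrays without inhibitor, and Mrpl12 only through 1 Day 4 array. Each treatment has 1 array and both share the 3 Day 6 arrays, so these shares describe these arrays.

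**Figure D3:**
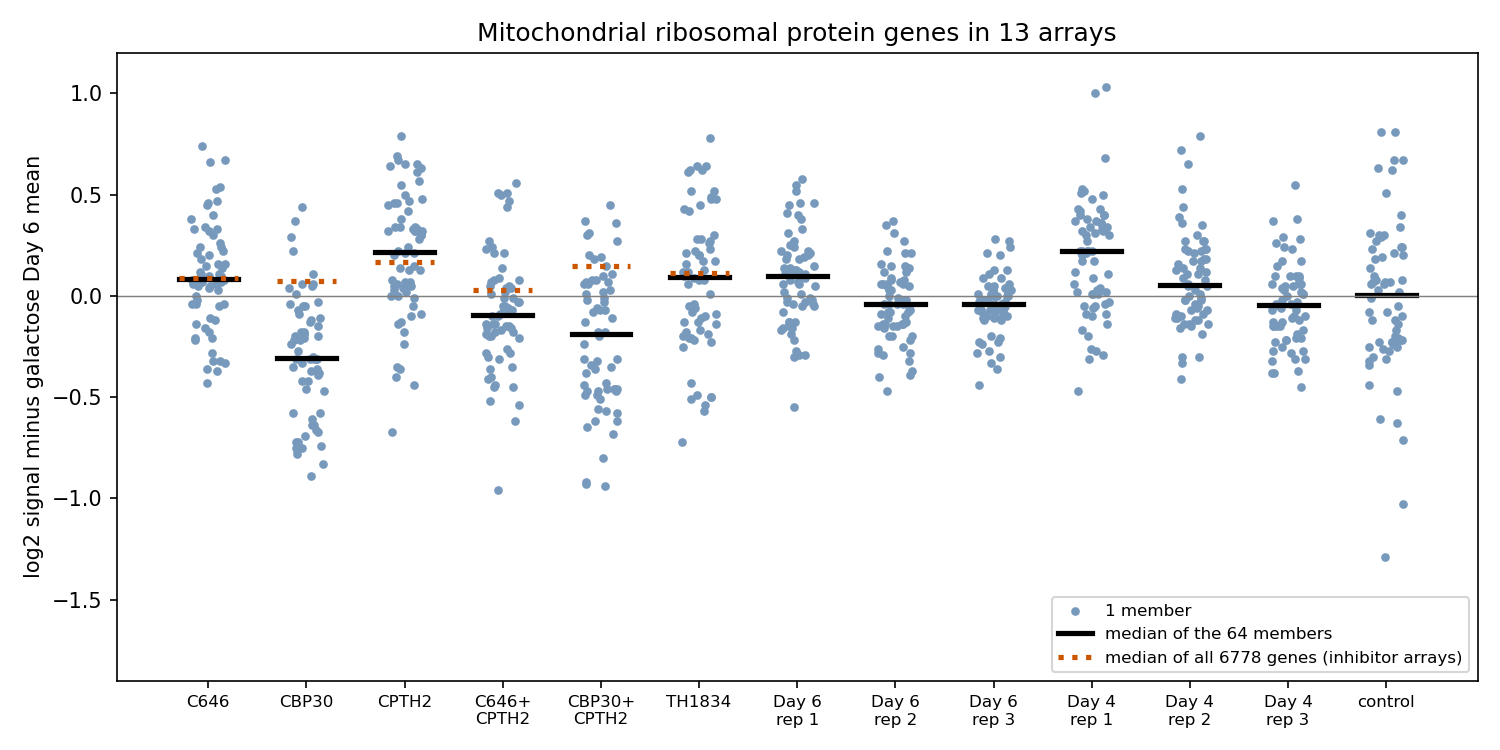
Log2 signal of each of the 64 tested members minus its galactose Day 6 mean, by array. Black bars are the members' medians and dotted orange bars the medians of all 6778 genes in the inhibitor arrays. The members' median was -0.31 with CBP30 and -0.19 with CBP30 and CPTH2, where that of all genes was 0.07 and 0.15.

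The members named in this paragraph were chosen after their values were seen, as those with the lowest mean difference over both arrays. Mrpl34, a large-subunit protein with a bacterial counterpart, had 6.85 with CBP30 and 6.68 with CBP30 and CPTH2, against 7.45, 7.75 and 7.60 on Day 6 (limma adjusted p = 0.221 and 0.111). Mrps16, a small-subunit protein with a bacterial counterpart, had 4.90 and 4.88 in these arrays, against 5.79, 5.67 and 5.57 on Day 6 (limma adjusted p = 0.144 and 0.104). Mrpl53, particular to mitochondria, had 8.08 and 7.79, against 8.91, 8.64 and 8.60 on Day 6 (limma adjusted p = 0.236 and 0.101). For these 3 genes both arrays lay under every Day 6 array, and none passed the test.

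The lower signals were found in both subunits and in both kinds of protein. Both CBP30 arrays lay below all Day 6 arrays for 13 of 25 large-subunit proteins with bacterial counterparts (52.0%) and 6 of 18 without (33.3%). In the small subunit it was 4 of 11 with counterparts (36.4%) and 4 of 9 without (44.4%). The share over all genes was 12.2%, and the small-subunit classes are small. Members with a mean signal of 6 or more did so in 15 of 29 cases (16.1% of all genes at that level) and those under 6 in 12 of 35 (9.4%). Members with an ETS motif did so in 10 of 19 cases (13.5% of all genes with it) and those without in 10 of 32 (12.0%). With a YY1 motif it was 2 of 11 (10.9%), against 18 of 40 without (12.4%), and with CCAAT 5 of 24 (13.1%), against 15 of 27 (11.8%). With the shorter NRF1 motif it was 3 of 8 (8.8%), against 17 of 43 (12.8%), and with TATAAA 2 of 6 (20.6%), against 18 of 45 (11.7%). These counts were not tested.

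Genes of other complexes also had lower signals in these arrays. Both CBP30 arrays lay below all Day 6 arrays for 57 of 97 genes named as cytosolic ribosomal proteins (58.8%, against 12.2% of all genes). They did so for 40 of 70 subunits of oxidative phosphorylation (57.1%), the complexes that the mitochondrial ribosome helps to supply. The medians with CBP30 were -0.38 and -0.43, and with CBP30 and CPTH2 -0.37 and -0.51. Of 16 import and mass markers 3 lay below (18.8%) and 4 above (25.0%, against 25.6% of all genes), with medians of -0.02 and 0.05. Of 7 mitochondrial translation factors 0 lay below and 3 above (42.9%). The means of the 9 lens epithelium genes were 6.62 with CBP30 and 6.47 with CBP30 and CPTH2, inside the range of Day 6 (5.70 to 6.84). Of these 9, Gja1 and Tfap2a lay above all Day 6 arrays in both CBP30 arrays and 0 lay below. Over all genes 25.6% lay above and 12.2% below, and small counts near these shares are no result about a group. The means of 8 fibre cell genes were 9.80 and 9.79, against 9.72 to 9.88 on Day 6, with Mip above and Dnase2b below in both.

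**Figure D4:**
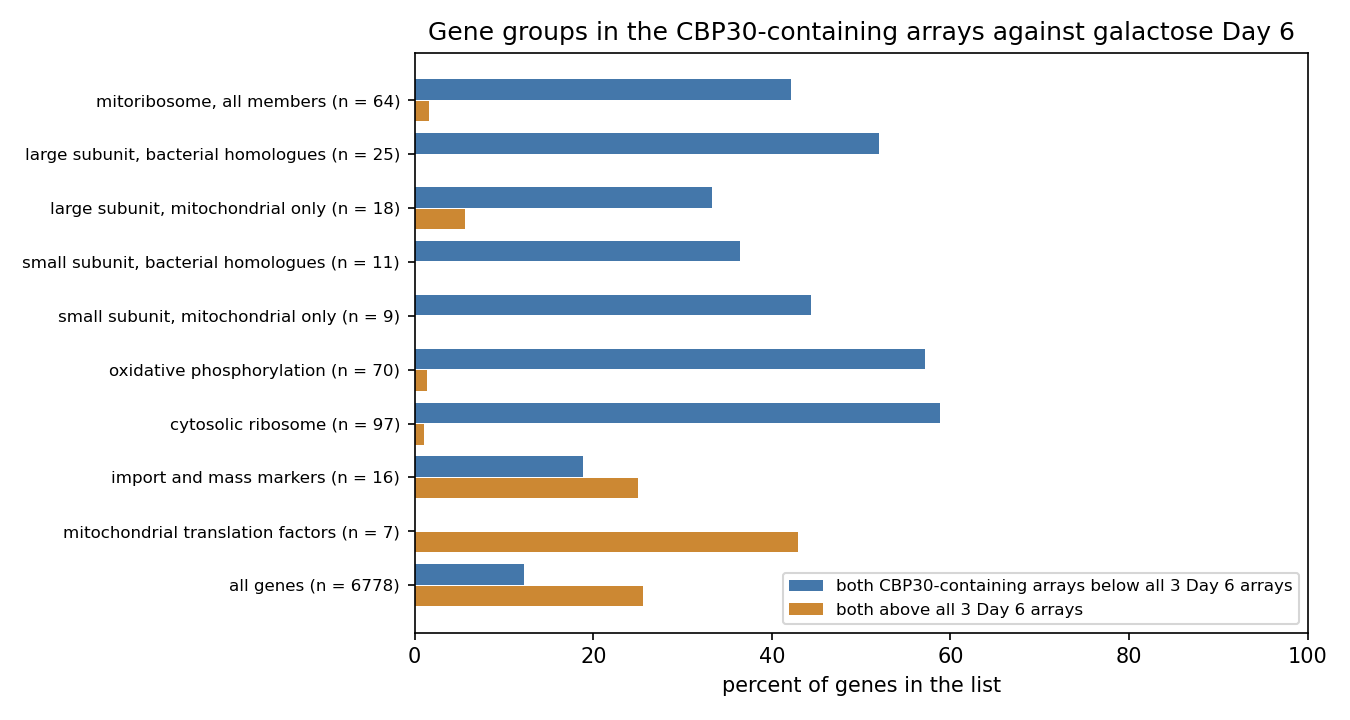
Percent of the genes of each group for which both CBP30-containing arrays lay below (blue) or above (orange) all 3 galactose Day 6 arrays, with the number of genes tested. The share below was 42.2% for all members, 58.8% for genes named as cytosolic ribosomal proteins, 57.1% for oxidative phosphorylation and 12.2% for all genes.

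C646, which is given as an inhibitor of the same enzymes as CBP30 but was used at another dose, had a members' median of 0.09, as over all genes, and of 0 after median centring and 0.16 without Day 6 replicate 1. Its array lay above all Day 6 arrays for 21 members (32.8%, against 33.8%) and below for 11 (17.2%, against 15.2%). CPTH2 had a median of 0.22, against 0.17 over all genes, with 32 members above (50%, against 47.4%) and 7 below (10.9%, against 13.1%). C646 with CPTH2 had a median of -0.09 (-0.03 without Day 6 replicate 1), against 0.03, with 11 above (17.2%, against 33.8%) and 19 below (29.7%, against 28.2%). In that array the epithelium genes were lowest of all arrays, at 4.96, and their part in the result was not tested.

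TH1834, which inhibits Tip60, had a median of 0.09 for the members and 0.11 for all genes, and the members' median was -0.05 after quantile normalization and -0.03 after median centring. It lay above all Day 6 arrays for 25 members (39.1%, against 40.5%) and below for 18 (28.1%, against 21%). Mrpl22 had 5.84 with TH1834, against 5.28, 4.92 and 4.98 on Day 6 (0.78, SE 0.30, limma adjusted p = 0.311), and Mrps18b had 6.91, against 6.05, 6.48 and 6.28 (0.64, SE 0.27, limma adjusted p = 0.335). Mrps33 (0.64) and Mrpl21 (0.63) were also above every Day 6 array. Mrpl13 had 5.39, against 6.49, 5.72 and 6.11 (-0.72, SE 0.35, limma adjusted p = 0.399), and Mrps16 had 5.14, against 5.79, 5.67 and 5.57 (-0.53, SE 0.20, limma adjusted p = 0.301). Mrps21 (-0.56) and Mrpl28 (-0.51) were also below every Day 6 array.

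The 3 treatments that reduced opacity in the study (TH1834, C646 with CPTH2, and CBP30 with CPTH2) were compared with the other 3 as groups of 3 arrays. CPTH2 alone, which had a weak effect, was put with C646 and CBP30. Different treatments thus served as replicates, and C646, CBP30 and CPTH2 each occur on both sides. The spread in this test therefore includes differences between treatments besides those between the galactose arrays. No member was called, as no gene was (0 of 6778, 0%, by limma), and 0 members had an unadjusted p under 0.05 (1.67% of all genes did with a positive and 2.54% with a negative difference). The median difference was -0.08 for the members and -0.01 for all genes, and 49 of 64 members were negative. The share of all genes with a negative difference was not counted, and the members share the same arrays. Mrpl36 had 6.17 with TH1834, 5.74 with C646 and CPTH2 and 5.15 with CBP30 and CPTH2, against 6.27 with C646, 5.85 with CBP30 and 6.17 with CPTH2 (-0.41, SE 0.23, limma adjusted p = 0.983). Mrpl55 (-0.40), Mrps7 (-0.30) and Mrps18c (-0.27) had the next lowest differences, and Mrpl18 (0.26), Mrps14 (0.25), Mrpl51 (0.22) and Mrpl47 (0.22) the highest.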

How the data were processed

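Gene expression was measured on 13 arrays, and the authors deposited log2 signal values for 36685 probe sets. How background was corrected and arrays were normalized is not given in the sources used here, so the values were used as deposited. Of the probe sets, 18511 carry 1 gene name in the platform annotation. Where a gene had more than 1 probe set, that of the highest mean signal represented it, and genes reaching 5 in at least 1 array were kept. All 72 members matched RefSeq symbols by identifier. The members, gene lists and tests were chosen with earlier results of these data known.

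One mean per condition was fitted in limma 3.58.1 (R 4.3.3). Tests were two-sided, and p-values were adjusted by Benjamini-Hochberg over all genes kept, with a threshold of 0.05. The fit had 4 residual and 4.97 prior degrees of freedom, and that of effective against ineffective treatments 8 and 5.61. The fits were tested on simulated data. Values are given for members called, the 4 largest and 4 smallest differences in 4 comparisons, the 3 highest and lowest in level per series and the 5 most variable. The lists of cytosolic ribosomal and oxidative phosphorylation genes were taken by symbol. Symbols marked as pseudogenes, kinases or binding proteins were left out, but unmarked copies were not searched for. The cytosolic list, with 151 genes on the arrays and 97 tested, may therefore hold such copies. Alternatives were no filter, a minimum of 4, quantile normalization, median centring, the mean of the probe sets, a trended robust prior, the replicate number as a block and leaving out galactose arrays. The number of arrays limits the precision. Opacity and RT-qPCR were not analysed here. Python 3.11.15 with pandas 2.3.3 and matplotlib was used for counts and plots.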

Additional observations from a re-analysis of the deposited data

How the results depend on the processing

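Where a scaling moved the members' median, the median of all genes moved the same way. After quantile normalization the members' median difference from galactose Day 6 was -0.001 with C646, 0.02 with CPTH2, -0.371 with CBP30 and CPTH2 and -0.054 with TH1834. After median centring it was 0 with C646, -0.408 with CBP30, 0.027 with CPTH2, -0.384 with CBP30 and CPTH2 and -0.033 with TH1834. Leaving out 1 galactose array at a time gave -0.293 to -0.166 with CBP30 and CPTH2, and -0.33 to -0.23 with CBP30, -0.13 to -0.028 with C646 and CPTH2, 0.07 to 0.163 with C646, -0.111 to 0.021 between Day 6 and Day 4, and with CBP30 50 to 54 members were negative.

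The count of members called on Day 4 against the control was 2 and became 0 without the filter (85 of all genes, against 256) and 0 with a minimum of 4. On Day 6 it was 1 and became 0 without the filter (151 of all genes, against 372), 0 with a minimum of 4, and 2 after median centring or with a trended robust prior, where Mrpl10 was also called (adjusted p = 0.048 and 0.0497). Leaving out 1 galactose array at a time gave 0 to 2 on both days. Without replicate 1 of both galactose days, an alternative added after seeing the data, 4 members were called on Day 4, 5 on Day 6 and 1 with C646 and CPTH2, and the difference of Mrps27 between Day 6 and Day 4 reversed to 0.119. On Day 6 these included Mrps21 (-0.915, adjusted p = 0.0301), Mrps21l (-1.10, adjusted p = 0.0269) and Mrps15 (-0.871, adjusted p = 0.0315). Counts over all genes in this setting are not given here, so the counts of members are no result about the group. The cause was not tested.

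With the replicate number as a block, 0 members were called between Day 6 and Day 4 and the median difference was -0.047. Deviations of same-numbered arrays correlated at 0.341, 0.076 and 0.251 and those of other pairs at -0.295 to 0.138, and 4 of 6 arrays correlated best with their own number. As 1 pair was under 0.1 and no source says what a number marks, the numbers were not taken as pairs. Signals under 5 need not be above background.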
